A study of Rattus norvegicus with 18 samples.

Results

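The enzymes described here attach glutathione, glucuronic acid or sulfate to foreign compounds, hormones, bilirubin and bile acids. They were taken as every rat gene whose symbol begins with Gst, Mgst, Ugt1, Ugt2 or Sult, named through the RefSeq accession of each array probe, with 1 gene of the Ugt2 family left out. The symbols gave 78 genes, of which 52 had a matched probe and 44 were tested, out of 15645 genes with a matched probe and 10914 tested in the whole series. Of the 44, 21 were cytosolic or mitochondrial glutathione S-transferases, 3 microsomal glutathione S-transferases, 10 UDP-glucuronosyltransferases and 10 sulfotransferases. The 8 measured genes that were not tested (Gsta4l1, Gstm6l, Gstt4, Sult1d1, Sult4a1, Sult6b1, Ugt2a1 and Ugt2b) were well above background on all 3 arrays of no group, and 26 genes, 12 of them pseudogenes, had no matched probe. Of the tested genes, 40 were well above background on all 18 arrays.

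Liver RNA came from 18 male F344/NSlc rats, 1 per array, bought at 5 weeks of age and kept for 1 week on a basal diet before dosing. Rats received N-nitrosodiethylamine (DEN), an alkylating liver carcinogen, at 4 mg/kg in saline, or carbon tetrachloride (CCl4), a solvent that injures the centre of the liver lobule and is not held to be genotoxic, at 100 mg/kg with corn oil as the vehicle. Every dose was gavaged once a day in 5 mL/kg, over 28 or 84 days, with 3 rats per compound and day and 3 controls at each day. Controls are named vehicle in their titles but untreated in the protocol, so whether they were gavaged is not known, and the compounds' vehicles differed. Each group is a single dose in one sex and strain of whole liver, so fewer cells of a type and less RNA per cell cannot be told apart.

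Conjugation makes a reactive or fat-soluble compound larger and more water-soluble, so that transporters can carry it into bile or blood. Glutathione S-transferases join the thiol of glutathione to electrophiles, UDP-glucuronosyltransferases move glucuronic acid from UDP-glucuronic acid onto their substrates in the endoplasmic reticulum, and sulfotransferases use the donor PAPS in the cytosol. Hepatocytes hold most of these enzymes. Gstp1, the placental form, is nearly absent from adult rat hepatocytes and is the classical marker of preneoplastic foci, while Sult2a enzymes sulfate hydroxysteroids and bile acids and differ between male and female rats.

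Promoter sequences are shown for the members on which the results turn, as the 250 bases before the RefSeq start on build GRCr8, read 5′ to 3′ on the gene's own strand. Gstp1 (chr1:210769706-210769955, minus strand), which had the largest rise with DEN at day 84 among the glutathione S-transferases by the probe used, and Gsta3 (chr9:31154739-31154988, plus strand), whose probes gave the widest range of changes, both hold the letters TGACNNNGC, the core of the antioxidant response element. The capitals mark that match. RefSeq gives Gsta3 a second start, not shown, whose window holds GCGTG but not TGACNNNGC.
Gstp1: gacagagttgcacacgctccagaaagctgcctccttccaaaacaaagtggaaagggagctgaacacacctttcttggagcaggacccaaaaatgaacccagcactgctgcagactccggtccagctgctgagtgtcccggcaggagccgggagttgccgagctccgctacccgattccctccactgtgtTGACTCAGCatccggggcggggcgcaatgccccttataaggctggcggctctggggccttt
Gsta3: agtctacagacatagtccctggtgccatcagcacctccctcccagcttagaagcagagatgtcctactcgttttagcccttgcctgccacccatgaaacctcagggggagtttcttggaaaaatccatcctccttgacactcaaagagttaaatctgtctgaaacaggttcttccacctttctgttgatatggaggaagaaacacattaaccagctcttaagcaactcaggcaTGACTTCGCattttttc
The motif was searched on both strands of windows from 250 bases before to 50 bases after the start, and 12.1% of all 33469 rat windows held it. Among 43 windows of 41 tested members, 7 windows (16.3%) held it, those of Gsta1, Gsta2, Gsta3, Gstm5, Gstm7, Gstp1 and Gstz1. GCGTG, the core bound by the aryl hydrocarbon receptor, stood in 11 of the 43 windows (25.6%), including those of Gsta2, Gstp1, Gstp3, Sult2b1 and Ugt1a6, and in 29.7% of all windows. The shares among the members were near those of all promoters, and these matches of letters describe the windows and are not binding sites.

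Sult2a1 (chr1:84638948-84639197), Sult2a6 (chr1:84097809-84098058) and Sult2a2 (chr1:85104533-85104782), all on the minus strand, are shown because they are close copies whose values moved apart. In Sult2a1 and Sult2a6 the capitals mark the 5 bases at which the 2 differ, and in Sult2a2 they mark the 32 bases with no identical partner in Sult2a6.
Sult2a1: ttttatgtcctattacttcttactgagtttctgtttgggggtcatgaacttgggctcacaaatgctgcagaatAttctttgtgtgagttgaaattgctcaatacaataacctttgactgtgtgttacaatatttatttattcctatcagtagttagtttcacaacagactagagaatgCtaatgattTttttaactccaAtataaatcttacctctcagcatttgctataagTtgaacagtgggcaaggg
Sult2a6: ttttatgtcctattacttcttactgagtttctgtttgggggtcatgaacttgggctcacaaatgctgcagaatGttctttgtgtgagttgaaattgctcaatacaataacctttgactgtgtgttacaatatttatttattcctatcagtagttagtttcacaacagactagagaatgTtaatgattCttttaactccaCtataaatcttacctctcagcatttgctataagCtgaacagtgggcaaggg
Sult2a2: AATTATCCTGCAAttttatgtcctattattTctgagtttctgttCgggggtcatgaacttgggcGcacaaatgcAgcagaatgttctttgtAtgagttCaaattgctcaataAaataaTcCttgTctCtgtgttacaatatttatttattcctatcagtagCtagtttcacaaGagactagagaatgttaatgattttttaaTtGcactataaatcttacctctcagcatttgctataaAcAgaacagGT
Sult2a1 and Sult2a6 shared 245 of 250 bases (98.0%), Sult2a2 and Sult2a6 218 of 237 aligned bases (92.0%), and Sult2a1 and Sult2a2 214 of 237 (90.3%). The probe sequences of the array were not analysed here, so how far a probe for 1 of these copies reads another was not tested.

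Values are log2 processed signals relative to the 75th percentile of the same array, called levels below, with 1 probe per gene. "Rose" and "fell" mean an adjusted p under 0.05 in limma's moderated test (Benjamini-Hochberg over the 10914 genes, 3 rats per group), given as log2 change ± SE. After 28 days of DEN, 9 of the 44 members rose and 4 fell, where 7.82% of all genes tested rose and 7.19% fell (15.0% either way). After 84 days of DEN 18 rose and 11 fell, against 21.6% and 31.1% of all genes (52.7% either way). CCl4 gave the opposite balance: 7 rose and 25 fell at day 28 (26.1% and 33.6% of all genes, 59.7% either way), and 9 rose and 23 fell at day 84 (28.0% and 36.3%, 64.3% either way). The median change of the members was -0.05 and 0.33 with DEN and -0.62 and -0.51 with CCl4 at days 28 and 84, while that of all genes lay between -0.10 and -0.04. At least 2-fold rises numbered 5 and 11 with DEN and 6 and 7 with CCl4, and at least 2-fold falls 6 with DEN at day 84 and 14 and 10 with CCl4. Among all genes, rises of that size made up 2.59% and 9.17% with DEN and 11.6% and 15.5% with CCl4, and falls 4.51% with DEN at day 84 and 7.28% and 6.53% with CCl4. None of the 4 falls with DEN at day 28 reached 2-fold, where 0.779% of all genes fell by that much.

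Gstm3, Gstm5, Gstp1 and Ugt1a9 rose in all 4 comparisons with control, and Mgst3, Sult1a1 and Ugt1a1 fell in all 4, although the falls of Sult1a1 with DEN (-0.46 ± 0.14 and -0.35 ± 0.14 at days 28 and 84) were each lost without any of 4 single arrays. Under spike-in scaling Sult1a1 instead rose with DEN at day 84 (0.35, adjusted p = 0.0382), and Mgst3 and Ugt1a1 were not called with DEN. With CCl4, 20 members fell at both days and 7 rose at both. Of the 7, Sult2a2, Sult2b1 and Ugt1a9 passed the background filter only through dosed groups, where they were high. Their rises, with that of Ugt1a9 in all 4 comparisons, are therefore not independent of the filter. Gsta4, Gsta6 and Ugt2b35 rose with DEN and fell with CCl4 at day 84, and the rise of Ugt2b35 (0.45 ± 0.15) was lost without replicate 2 of either group. None of their falls with CCl4 was called under spike-in scaling, nor that of Gsta4 with quantile normalization. The omega-class enzymes Gsto1 and Gsto2 and the glucuronosyltransferases Ugt1a2 and Ugt2b10 passed the test in none of the 4 by the probe used. A second Ugt1a2 probe rose with DEN at day 84 (0.40). With normexp background correction, whose offset of 50 shrinks the changes of dim genes, the calls of Sult2b1 (0.26), Sult2a2 (0.26), Gstm5 (0.12), Gsta3 (-0.17), Mgst2 (-0.22) and Sult1b1 (-0.027) with CCl4 at day 28 were lost. So were those of Ugt1a9 (0.40), Gstm6 (0.13), Ugt1a6 (-0.28) and Sult1a1 (-0.38) with DEN at day 28, of Sult2a2 (0.74) and Sult1a1 (-0.23) with DEN at day 84 and of Ugt1a6 (-0.23) with CCl4 at day 84.

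**Figure D1:**
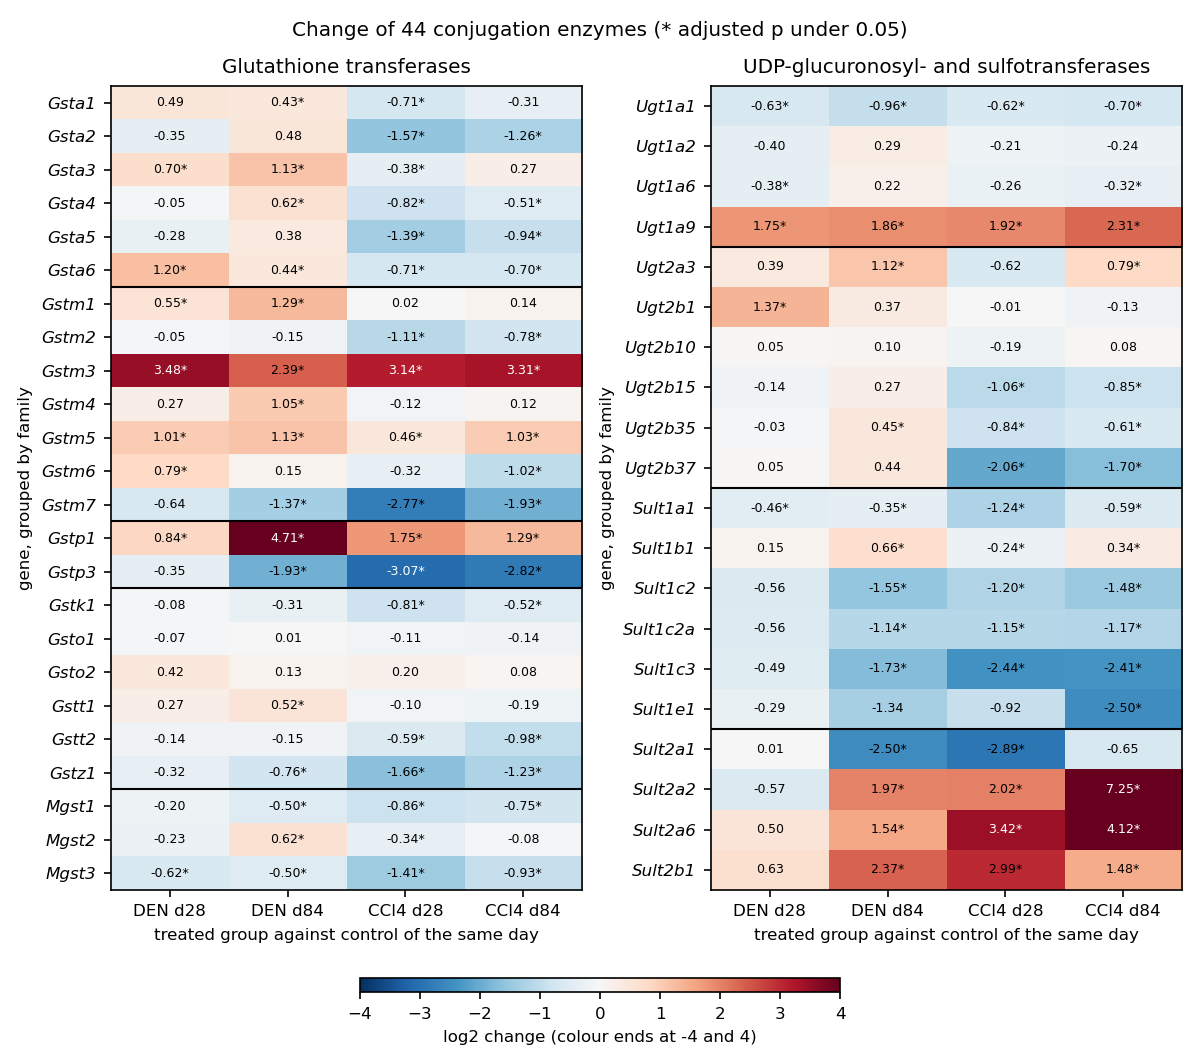
Log2 change against control of the 44 tested members (rows, by family) with DEN and CCl4 at days 28 and 84 (columns), with red for higher and blue for lower levels relative to the 75th percentile of the array, and an asterisk where limma's adjusted p is under 0.05. The CCl4 columns are mostly blue (25 and 23 falls), and the DEN column of day 84 holds 18 rises. Sult2b1 at day 28 is drawn at its fitted values, although its probe was above background in 0 of 3 controls and 0 of 3 DEN rats.

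The balance depends on the scale, because each value is relative to its array. When arrays were scaled on 8 spike-in probes instead, the median of all genes shifted to 0.36 and 0.63 with DEN and 0.74 and 0.45 with CCl4 at days 28 and 84, so most genes stood higher in dosed livers on that scale. The members then split into 16 rises and 0 falls with DEN at day 28 (limma; 20 higher and 0 lower at an unadjusted p under 0.05), 32 and 4 with DEN at day 84, 19 and 10 with CCl4 at day 28, and 16 and 11 with CCl4 at day 84. With quantile normalization the split was 12 and 2 for DEN at day 28, and 23 and 9 for DEN at day 84. These counts, and others by scaling below, stand without the share of all genes under the same scaling. They therefore do not set the members apart from other genes. The difference between the median of the members and that of all genes does not depend on a constant per array: it was -0.01 and 0.40 with DEN and -0.55 and -0.42 with CCl4. Under all 4 scalings tried, 9 and 17 members rose with DEN at days 28 and 84 and 7 and 9 with CCl4, while 4 fell with DEN at day 84 and 10 and 11 fell with CCl4.

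**Figure D2:**
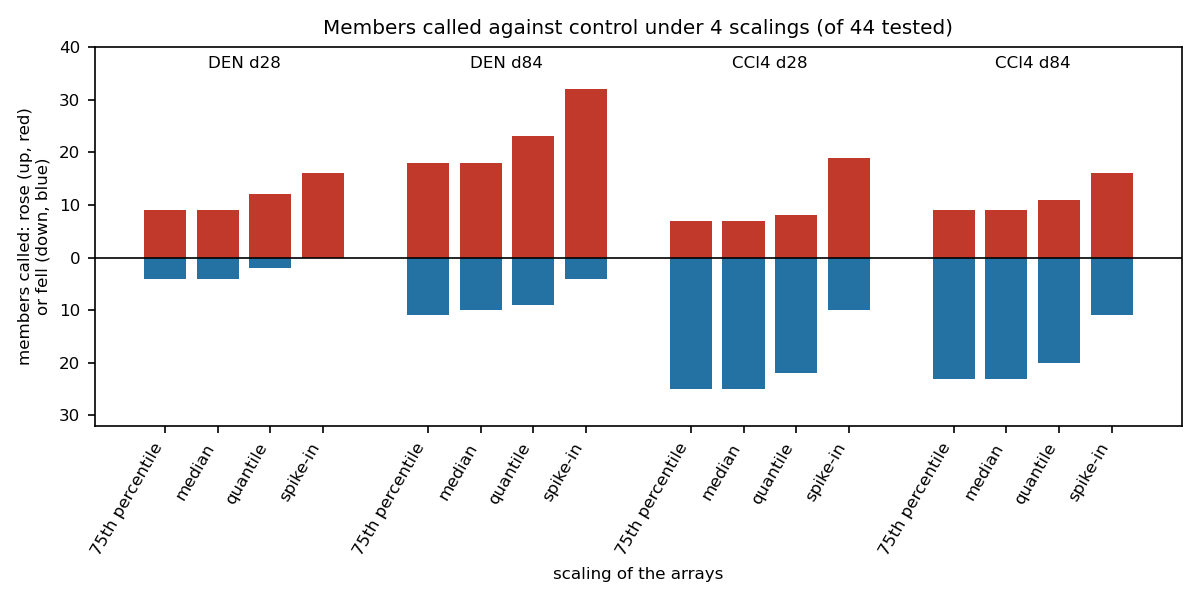
Number of the 44 members that rose (upward bars) or fell (downward bars) against control under 4 ways of scaling the arrays. The split for CCl4 at day 28 goes from 7 rises and 25 falls with the 75th percentile to 19 and 10 with spike-in scaling.

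The alpha class holds dimeric enzymes that conjugate electrophiles and reduce lipid peroxides. By the 1 probe used per gene, it was lower with CCl4 than with DEN in all 6 members at both days. Under spike-in scaling that held in 5 and 6 of them. A further Gsta3 probe instead changed more with CCl4 (4.67) than with DEN (3.79) at day 28. Against control, by the same probes, all 6 fell with CCl4 at day 28 and 4 at day 84. With DEN, 2 rose at day 28 and 4 at day 84. Of the 3 Gsta3 probes, however, 2 rose with CCl4 at day 28. The rise of Gsta1 with DEN at day 84 was lost without any of 6 single arrays (0.39 to 0.45). Under spike-in scaling the falls with CCl4 numbered 2 and 1, with 1 rise at day 84, and the rises with DEN 3 and 6. Gsta5 had levels of 9.07, 9.37 and 9.04 in controls of day 28, 8.95, 8.90 and 8.79 with DEN and 8.08, 7.05 and 8.16 with CCl4. At day 84 its levels were 8.97, 8.93 and 8.92 in controls, 9.34, 9.35 and 9.26 with DEN and 7.83, 8.10 and 8.09 with CCl4. The CCl4 arrays lay below all controls at both days, and the change was -1.39 ± 0.21 (adjusted p = 7.70e-05) and -0.94 ± 0.21 (adjusted p = 0.00146, not called under spike-in scaling). With DEN at day 84 its change of 0.38 ± 0.21 missed the threshold (adjusted p = 0.147).

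Gsta2, which also acts as a peroxidase, changed in the same way: levels were 8.28, 8.53 and 8.15 in controls of day 28 and 7.08, 5.93 and 7.23 with CCl4, and 8.14, 8.18 and 8.16 in controls of day 84 and 6.80, 6.89 and 7.02 with CCl4. It fell by 1.57 ± 0.24 and 1.26 ± 0.24 on the log2 scale (adjusted p = 7.26e-05 and 0.000367), also under spike-in scaling. With DEN its levels were 8.0, 8.01 and 7.91 at day 28 and 8.64, 8.74 and 8.53 at day 84, and neither change passed the test (adjusted p = 0.336 and 0.103).

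Gsta6 rose with DEN and fell with CCl4 at both days. Its levels at day 28 were 2.08, 1.88 and 1.94 in controls, 3.25, 3.13 and 3.12 with DEN and 1.35, 1.11 and 1.31 with CCl4, so the 3 groups did not overlap. At day 84 they were 2.18, 2.21 and 2.12 in controls, 2.63, 2.47 and 2.71 with DEN and 1.62, 1.38 and 1.42 with CCl4. The rise with DEN was 1.20 ± 0.09 at day 28 (adjusted p = 8.98e-07) and 0.44 ± 0.09 at day 84 (adjusted p = 0.00123), and the fall with CCl4 was -0.71 ± 0.09 and -0.70 ± 0.09 (both adjusted p = 1.72e-05). Under spike-in scaling the rises were again called, while the values with CCl4 were 0.086 and -0.15 and were not. Gsta4, which conjugates hydroxynonenal, a product of lipid peroxidation, changed by 0.62 ± 0.12 with DEN (adjusted p = 0.000794) and -0.51 ± 0.12 with CCl4 (adjusted p = 0.00211) at day 84. A second Gsta4 probe gave -0.35 with CCl4 at day 84 and was not called. The fall with CCl4 by the probe used was not called with quantile normalization or under spike-in scaling (0.0435). With the slide as a block it was -0.37 and not called. That block takes CCl4 at day 84 from replicate 1 alone, as replicates 2 and 3 had a slide to themselves.

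The mu class acts on epoxides and quinones. By the probe used per gene, it held the largest rise and one of the deepest falls among the glutathione S-transferases at day 28. Of its 7 members, 4 rose with DEN at each day and 2 with CCl4 at each day, while 2 and 3 fell with CCl4. Under spike-in scaling 5 and 6 rose with DEN and 5 and 4 with CCl4, and 1 and 2 fell with CCl4. Gstm3 had levels of -0.40, 0.43 and 0.35 in controls of day 28, 3.57, 3.52 and 3.74 with DEN and 3.04, 3.68 and 3.08 with CCl4. At day 84 its levels were 0.86, 0.23 and 0.36 in controls, 3.09, 2.69 and 2.83 with DEN and 3.97, 3.42 and 3.97 with CCl4. All 12 dosed rats thus stood above all 6 controls. It rose 11.2-fold and 5.24-fold with DEN (adjusted p = 4.09e-07 and 5.45e-06) and 8.81-fold and 9.89-fold with CCl4 (adjusted p = 3.01e-07 and 1.72e-07) at days 28 and 84. Gstm5 rose less, by 1.01 ± 0.15 and 1.13 ± 0.15 on the log2 scale with DEN and 0.46 ± 0.15 and 1.03 ± 0.15 with CCl4, and its rise with CCl4 at day 28 was lost without any of 3 single arrays (0.36 to 0.41).

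Gstm1, a main hepatic mu form, rose with DEN: levels were 7.31, 7.66 and 7.29 in controls and 8.05, 7.93 and 7.92 with DEN at day 28, and 7.38, 7.10 and 7.11 in controls and 8.52, 8.60 and 8.36 with DEN at day 84. The rise was 0.55 ± 0.12 (adjusted p = 0.00917) and 1.29 ± 0.12 (adjusted p = 2.84e-06). With CCl4 the levels were 7.54, 7.23 and 7.54 at day 28 and 7.23, 7.47 and 7.32 at day 84, which differed from controls by 0.02 ± 0.12 and 0.14 ± 0.12, and CCl4 was below DEN by -0.53 ± 0.12 and -1.15 ± 0.12 (adjusted p = 0.00294 and 1.63e-05; the first was -0.14 and not called under spike-in scaling). Gstm7 fell: from 4.84, 4.52 and 4.63 in controls to 2.37, 0.66 and 2.66 with CCl4 at day 28, and from 4.18, 4.33 and 4.14 to 2.27, 2.38 and 2.22 at day 84. With DEN its levels were 3.95, 4.14 and 3.98 at day 28 and 2.73, 2.44 and 3.35 at day 84. The falls were 6.81-fold and 3.80-fold with CCl4 (adjusted p = 2.89e-05 and 0.000451) and 2.59-fold with DEN at day 84 (adjusted p = 0.00707, not called under spike-in scaling).

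Both tested pi-class members changed, in opposite directions in 3 of the 4 comparisons. Gstp1 levels were 4.34, 4.27 and 3.85 in controls of day 28, 5.06, 4.91 and 4.99 with DEN and 5.79, 5.95 and 5.96 with CCl4. After 84 days the levels were 4.30, 4.38 and 4.44 in controls, 9.09, 9.0 and 9.15 with DEN and 5.71, 5.62 and 5.66 with CCl4. No 2 groups of a day overlapped, and the order of DEN and CCl4 turned between the days. Gstp1 rose 1.79-fold with DEN and 3.36-fold with CCl4 at day 28 (adjusted p = 0.000205 and 4.53e-08), and 26.1-fold and 2.44-fold at day 84 (adjusted p = 1.91e-12 and 4.47e-07). The DEN effect was 3.87 ± 0.15 log2 units larger at day 84 than at day 28 (adjusted p = 3.56e-09), and at day 84 CCl4 was 10.7-fold below DEN (adjusted p = 1.64e-10).

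Gstp3, a further pi-class gene, went the other way. Its levels were 8.16, 8.48 and 8.53 in controls, 8.03, 8.24 and 7.85 with DEN and 5.71, 3.55 and 6.69 with CCl4 at day 28. At day 84 they were 8.45, 8.39 and 8.27 in controls, 6.57, 5.67 and 7.07 with DEN and 5.94, 5.82 and 4.90 with CCl4. The falls were 8.42-fold with CCl4 at day 28, 3.82-fold with DEN at day 84 and 7.04-fold with CCl4 at day 84 (adjusted p = 0.000414, 0.0122 and 0.000708), called under all 4 scalings. Without replicate 2 of DEN at day 84 the fall with DEN was -1.55 and no longer passed the test.

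**Figure D3:**
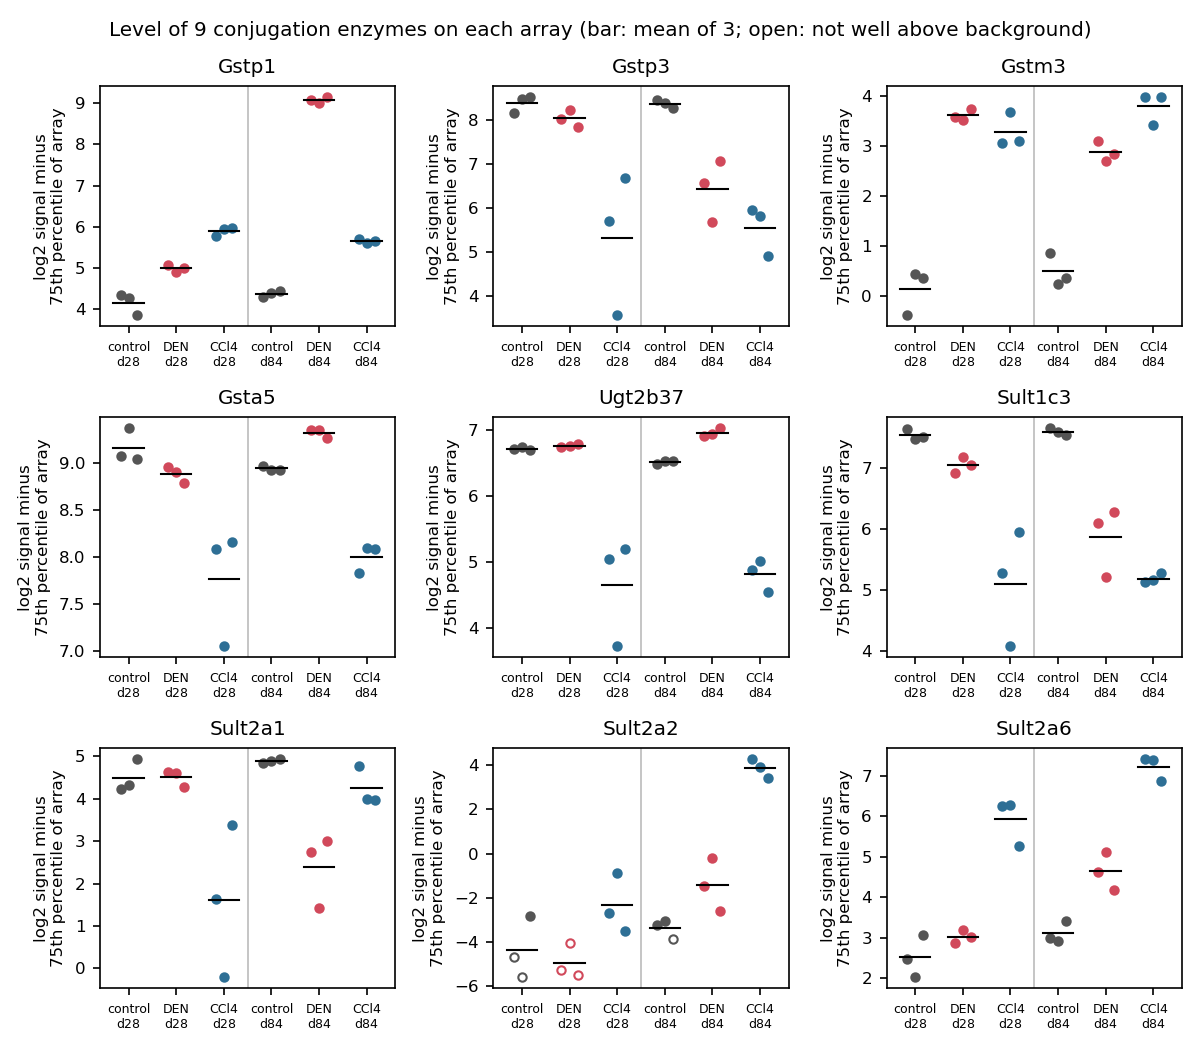
Level of 9 members on each of the 18 arrays (log2 processed signal relative to the 75th percentile of the array), in 6 groups of 3 rats, with a line at the group mean and an open symbol where the probe was not well above background. Gstp1 stands near 9 with DEN at day 84 and between 3.85 and 5.96 elsewhere, and Sult2a2 reaches 3.42 to 4.28 with CCl4 at day 84.

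The remaining 6 cytosolic or mitochondrial members (zeta, theta, kappa and omega classes) fell in 3 cases with CCl4 at each day and rose or fell in 1 each with DEN at day 84. Under spike-in scaling 3 and 2 of them rose with CCl4, 1 and 1 fell, and 4 rose with DEN at day 84. Gstz1, the maleylacetoacetate isomerase of tyrosine breakdown, had levels of 8.36, 8.13 and 8.32 in controls and 6.87, 5.90 and 7.05 with CCl4 at day 28, and 7.92, 8.01 and 7.93 in controls and 6.79, 6.88 and 6.49 with CCl4 at day 84. It fell 3.17-fold and 2.35-fold (adjusted p = 2.62e-05 and 0.000248), called under all 4 scalings. Its DEN levels of 7.87, 7.98 and 7.99 at day 28 did not pass the test (adjusted p = 0.334), and those of 7.24, 6.95 and 7.39 at day 84 gave -0.76 ± 0.22 (adjusted p = 0.0106), which became -0.64 and was lost without replicate 2 of DEN.

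Gstt2, a theta-class enzyme, fell with CCl4 from 2.99, 2.78 and 2.69 to 2.23, 1.85 and 2.62 at day 28 and from 3.28, 3.17 and 3.14 to 2.49, 2.06 and 2.11 at day 84 (adjusted p = 0.00479 and 8.94e-05). DEN arrays, at 2.70, 2.68 and 2.66 and at 3.01, 3.05 and 3.09, differed from the controls by -0.14 ± 0.15 and -0.15 ± 0.15 and did not pass the test. A second Gstt2 probe, however, fell with DEN at day 84 (-0.50). Gstk1, the mitochondrial and peroxisomal kappa form, went from 5.49, 5.26 and 5.68 to 4.87, 4.10 and 5.02 with CCl4 at day 28 and from 5.26, 5.43 and 5.29 to 4.89, 4.85 and 4.69 at day 84 (-0.81 ± 0.18 and -0.52 ± 0.18, adjusted p = 0.00153 and 0.0216). The fall of day 28 was -0.53 without replicate 2 of CCl4. That of day 84 was lost without replicate 2 of the controls or replicate 3 of CCl4 (-0.47 and -0.46). It was also lost with the slide as a block (-0.44, from replicate 1 of CCl4 alone). Its DEN levels were 5.37, 5.31 and 5.51 and then 5.01, 4.94 and 5.10, and neither passed the test (adjusted p = 0.788 and 0.164). The falls of Gstt2 and Gstk1 were not called under spike-in scaling, where Gstt2 stood at 0.22 and -0.42 and Gstk1 at -0.01 and 0.03.

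The microsomal enzymes are membrane proteins unrelated in sequence to the cytosolic ones. Mgst1, which protects membranes from lipid peroxides, had levels of 8.85, 8.76 and 8.81 in controls, 8.59, 8.61 and 8.63 with DEN and 8.16, 7.56 and 8.12 with CCl4 at day 28, and 8.52, 8.60 and 8.60, then 8.04, 7.99 and 8.20, then 7.75, 7.91 and 7.82 in the same order at day 84. It fell with CCl4 at both days and with DEN at day 84 (-0.86, -0.75 and -0.50, each ± 0.12), none of which was called under spike-in scaling. Mgst3, linked to leukotriene synthesis, had levels of 7.93, 7.79 and 7.69 in controls, 7.07, 7.31 and 7.17 with DEN and 6.63, 6.10 and 6.46 with CCl4 at day 28. At day 84 the same groups had 7.29, 7.40 and 7.45, then 6.86, 6.89 and 6.89, then 6.26, 6.62 and 6.48. Its groups did not overlap, and it fell by -0.62 and -0.50 with DEN and -1.41 and -0.93 with CCl4 (each ± 0.12); the falls with CCl4 were called under all 4 scalings and those with DEN were not.

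Mgst2 was the one microsomal form that rose on this scale, with DEN at day 84. Levels there were 6.16, 6.41 and 5.81 against 5.46, 5.48 and 5.56 in controls (0.62 ± 0.13, adjusted p = 0.00167). At day 28 they were 5.76, 5.55 and 5.64 in controls, 5.33, 5.48 and 5.43 with DEN and 5.46, 5.06 and 5.39 with CCl4, and at day 84 5.41, 5.54 and 5.32 with CCl4. Its fall with CCl4 at day 28 (-0.34 ± 0.13, adjusted p = 0.0411) was lost without any of 3 single arrays (-0.35 to -0.22), one of them replicate 2 of CCl4, and turned to a rise of 0.46 under spike-in scaling. The DEN effect was 0.85 ± 0.19 larger at day 84 than at day 28 (adjusted p = 0.0104).

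For 18 members more than 1 probe passed the background filter, and in 3 of these the probes differed by over 1 log2 unit in a comparison with control. All 3 Gstp1 probes rose in all 4 comparisons, and their rise with DEN at day 84 was 4.71, 6.70 and 7.13 log2 units, so the size of that rise depends on the probe. The probe used for Gsta3, which RefSeq also lists as Yc2, the subunit known for its action on aflatoxin epoxide, changed by 0.70, -0.38, 1.13 and 0.27 with DEN at day 28, CCl4 at day 28, DEN at day 84 and CCl4 at day 84, the last not called and the second lost without any of 4 single arrays (-0.41 to -0.28). The second Gsta3 probe rose in all 4 (1.02, 0.46, 2.17 and 1.45). The third rose by 3.79, 4.67, 9.15 and 8.50 log2 units, and only 1 of 3 control arrays of day 84 was well above background on it. Direction with CCl4 at day 28 thus differed between Gsta3 probes.

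Ugt1a6, a glucuronosyltransferase for planar phenols that is induced through the aryl hydrocarbon receptor, split in the same manner. The probe used had levels of 7.10, 6.85 and 6.66 in controls, 6.46, 6.52 and 6.48 with DEN and 6.67, 6.35 and 6.82 with CCl4 at day 28. At day 84 it had 6.84, 6.77 and 6.74, then 6.98, 7.09 and 6.94, then 6.58, 6.40 and 6.41 in that order. Its changes were small, at -0.38, -0.26, 0.22 and -0.32 with DEN and CCl4 at day 28 and then at day 84, the first and the last called and each lost without any of 5 and 4 single arrays (-0.40 to -0.27 and -0.32 to -0.29). The last was also lost with the slide as a block (-0.20, from replicate 1 of CCl4 alone). A second probe gave -0.34, -0.12, 0.38 and -0.16, and the third probe rose in all 4 comparisons, by 1.49, 1.66, 4.25 and 1.69. Genes of the Ugt1 cluster share their last exons, and which transcripts each probe reads was not tested.

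**Figure D4:**
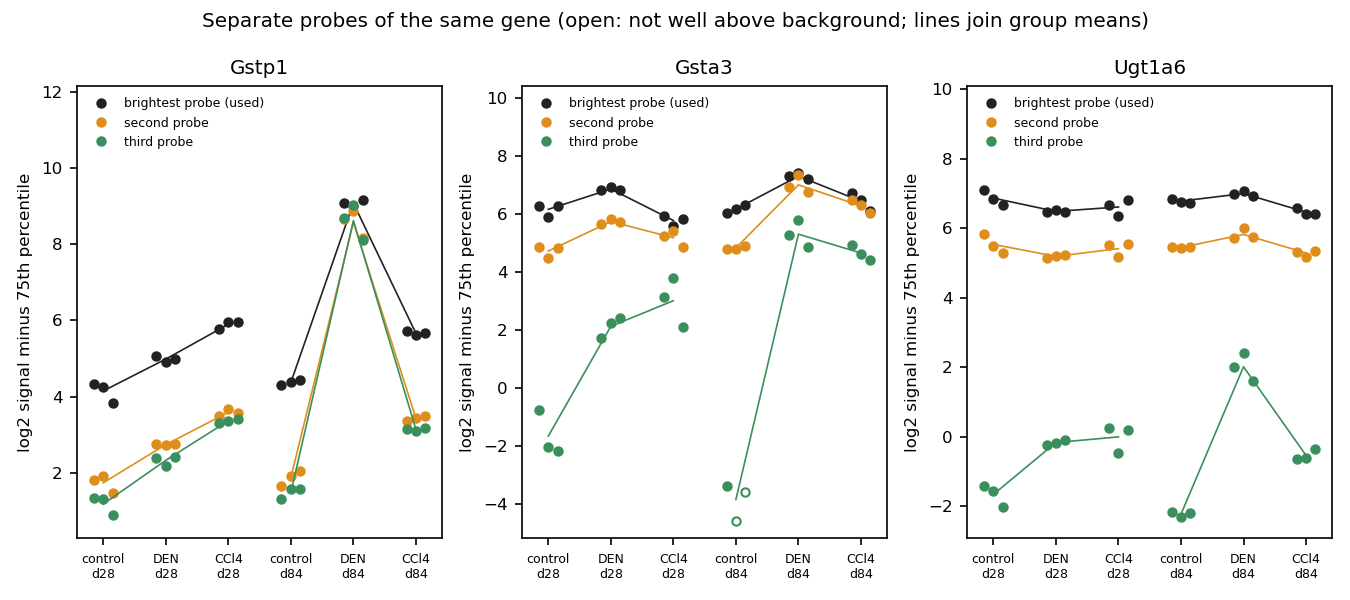
Level of each of the 3 probes of Gstp1, Gsta3 and Ugt1a6 on the 18 arrays (log2 processed signal relative to the 75th percentile of the array), in 6 groups of 3 rats, with lines joining the group means of a day, black for the probe used for the gene and open symbols where a probe was not well above background. The Gstp1 probes rise by 4.71 to 7.13 with DEN at day 84, the Gsta3 probes change by -0.38 to 4.67 with CCl4 at day 28, and 1 of 3 Ugt1a6 probes rises in all 4 comparisons.

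Among the 4 tested Ugt1 members, Ugt1a9, an enzyme for bulky phenols, was dim in controls and rose in every dosed group. Its levels were -3.43, -4.40 and -3.80 in controls of day 28, -1.52, -2.17 and -2.69 with DEN and -1.82, -2.05 and -2.0 with CCl4, and -3.79, -3.84 and -3.38, then -1.46, -1.72 and -2.25, then -1.0, -1.46 and -1.64 at day 84. Only 1 control of day 28 and 2 of day 84 were well above background, and all 12 dosed rats stood above all controls. It rose 3.37-fold and 3.64-fold with DEN and 3.79-fold and 4.95-fold with CCl4 at days 28 and 84 (adjusted p = 0.002, 0.000206, 9.92e-05 and 1.85e-05). These folds rest in part on control signals at background and are not exact, and the probe passed the background filter only through the dosed groups. With normexp background correction the changes in that order were 0.40, 0.54, 0.37 and 0.81 log2 units. Ugt1a1, which glucuronidates bilirubin, fell: levels were 3.35, 3.17 and 2.86 in controls, 2.44, 2.47 and 2.59 with DEN and 2.57, 2.27 and 2.69 with CCl4 at day 28, and 3.02, 3.05 and 3.00, then 1.92, 1.90 and 2.37, then 2.41, 2.15 and 2.41 at day 84. Its changes were -0.63 and -0.96 with DEN and -0.62 and -0.70 with CCl4 (each ± 0.15, adjusted p between 0.000144 and 0.0133), and the first was lost without replicate 1 of the controls or of DEN (-0.60 and -0.52). Under spike-in scaling they were -0.22, -0.26, 0.18 and -0.15 in that order, none called.

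The Ugt2 members glucuronidate steroids, bile acids and drugs, and 5 of 6 were lower with CCl4 than with DEN at day 28 and 3 at day 84 (3 and 3 under spike-in scaling). Ugt2b37 had levels of 6.71, 6.75 and 6.70 in controls, 6.75, 6.76 and 6.80 with DEN and 5.05, 3.73 and 5.21 with CCl4 at day 28. The levels of day 84 were 6.50, 6.53 and 6.53 in controls, 6.91, 6.95 and 7.04 with DEN and 4.88, 5.03 and 4.55 with CCl4. It fell 4.16-fold and 3.25-fold with CCl4 (adjusted p = 2.19e-05 and 8.46e-05) under all 4 scalings, and differed from control by 0.05 ± 0.27 and 0.44 ± 0.27 with DEN (adjusted p = 0.916 and 0.175). Ugt2b15, an androgen-conjugating enzyme, had 8.13, 8.26 and 8.04 in controls, 8.03, 8.01 and 7.97 with DEN and 7.30, 6.64 and 7.29 with CCl4 at day 28, and 7.90, 7.86 and 7.92, then 8.14, 8.23 and 8.13, then 7.05, 7.20 and 6.88 at day 84. Its falls with CCl4 of -1.06 ± 0.14 and -0.85 ± 0.14 (adjusted p = 2.37e-05 and 0.000118) were not called under spike-in scaling.

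Ugt2b1, a form induced by phenobarbital-like drugs, rose with DEN at day 28 and in no other comparison with control. Levels were 3.39, 3.95 and 4.18 in controls of day 28, 5.32, 5.12 and 5.19 with DEN and 4.11, 3.32 and 4.06 with CCl4, a rise of 1.37 ± 0.26 with DEN (adjusted p = 0.0039). At day 84 they were 4.43, 4.10 and 4.50 in controls, 4.90, 4.17 and 5.06 with DEN and 4.43, 4.27 and 3.95 with CCl4, and the groups overlapped. The difference of the DEN effect between the days, -1.0 ± 0.37, missed the threshold (adjusted p = 0.0801). Ugt2a3 had levels of 2.59, 3.20 and 2.75 in controls, 3.06, 3.22 and 3.44 with DEN and 2.64, 1.55 and 2.50 with CCl4 at day 28, and 1.84, 1.90 and 2.26, then 3.11, 2.82 and 3.45, then 2.90, 2.58 and 2.89 at day 84. It rose with DEN (1.12 ± 0.26, adjusted p = 0.00241) and CCl4 (0.79 ± 0.26, adjusted p = 0.0149) at day 84. The rise with CCl4 was lost without replicate 1 of the controls (0.71) and with the slide as a block (0.90, from replicate 1 of CCl4 alone). A second Ugt2a3 probe gave 0.53 with CCl4 at day 84 and was not called.

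Of the 6 Sult1 members, which sulfate phenols, thyroid hormone, oestrogens and bulky amines, 5 fell with CCl4 at each day and 4 with DEN at day 84, against 2 and 4 with CCl4 and 2 with DEN under spike-in scaling. Sult1c3 had levels of 7.63, 7.47 and 7.50 in controls, 6.91, 7.18 and 7.04 with DEN and 5.28, 4.08 and 5.94 with CCl4 at day 28. At day 84 its levels were 7.65, 7.58 and 7.54 in controls, 6.09, 5.21 and 6.28 with DEN and 5.13, 5.16 and 5.27 with CCl4. It fell 5.41-fold and 5.30-fold with CCl4 (adjusted p = 4.67e-05 and 4.22e-05) and 3.32-fold with DEN at day 84 (adjusted p = 0.00102), all 3 under each scaling. Sult1c2 fell from 2.47, 2.41 and 2.67 to 1.51, 0.73 and 1.70 with CCl4 at day 28, and from 3.29, 3.24 and 3.36 to 1.72, 1.41 and 2.10 with DEN and 1.98, 1.79 and 1.68 with CCl4 at day 84. Its DEN levels at day 28 were 1.84, 2.12 and 1.90 (-0.56 ± 0.21, adjusted p = 0.0858), and the other falls were between 2.30-fold and 2.94-fold, of which that with CCl4 at day 28 was not called under spike-in scaling.

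Sult1e1, the oestrogen sulfotransferase, fell with CCl4 at day 84 and depended on how slides were handled. Levels at day 84 were 3.63, 3.51 and 3.75 in controls, 2.54, 1.34 and 3.00 with DEN and -0.14, 1.51 and 2.02 with CCl4, a fall of 5.65-fold with CCl4 (adjusted p = 0.00127) and a change of -1.34 ± 0.55 with DEN (adjusted p = 0.0554). At day 28 they were 3.44, 3.22 and 3.23, then 2.94, 3.02 and 3.08, then 2.58, 1.21 and 3.33, and neither change passed the test. With the slide as a block its change with CCl4 at day 84 was -3.77, a value from replicate 1 alone. Replicates 2 and 3 were the only arrays on their slide. With that block its changes with CCl4 at day 28 (-1.40, from replicates 1 and 2, adjusted p = 0.0141) and DEN at day 84 (-1.34, adjusted p = 0.0115) were called. Sult1b1, which sulfates thyroid hormones, was the exception of the family, with levels of 7.20, 7.25 and 7.11 in controls, 7.34, 7.34 and 7.33 with DEN and 7.05, 6.77 and 7.0 with CCl4 at day 28 and 6.42, 6.48 and 6.68, then 7.18, 7.09 and 7.30, then 6.89, 6.83 and 6.88 at day 84. It rose with both compounds at day 84 (0.66 ± 0.09 with DEN and 0.34 ± 0.09 with CCl4, adjusted p = 3.52e-05 and 0.00299) under all 4 scalings. Its fall with CCl4 at day 28 (-0.24 ± 0.09, adjusted p = 0.0234) was lost without any of 3 single arrays (-0.24 to -0.16), one of them replicate 2 of CCl4, and turned to a rise of 0.56 under spike-in scaling.

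Of the 4 tested hydroxysteroid sulfotransferases of the Sult2 family, 3 rose and 1 fell with CCl4 at day 28 and with DEN at day 84, and 3 rose with CCl4 at day 84. Among those that rose, Sult2a2 and Sult2b1 passed the background filter only through dosed groups, where they were high. Their rises are therefore not independent of the filter. Sult2a1 was the one that fell. Sult2a6 had levels of 2.46, 2.01 and 3.07 in controls, 2.87, 3.18 and 3.00 with DEN and 6.26, 6.28 and 5.28 with CCl4 at day 28. In rats of day 84 they were 2.99, 2.92 and 3.42 in controls, 4.63, 5.11 and 4.19 with DEN and 7.42, 7.39 and 6.88 with CCl4. The CCl4 arrays were the highest at both days, with rises of 10.7-fold and 17.4-fold (adjusted p = 1.27e-06 and 2.19e-07), and DEN gave a rise of 2.90-fold at day 84 (adjusted p = 0.00115).

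Sult2a2 was at or near background in controls and with DEN at day 28. Its levels were -4.69, -5.60 and -2.82 in controls of day 28, with 1 of 3 well above background, -5.25, -4.06 and -5.50 with DEN, with 0 of 3 above, and -2.67, -0.87 and -3.50 with CCl4. At day 84 they were -3.25, -3.03 and -3.86 in controls, with 2 of 3 above background, -1.47, -0.18 and -2.59 with DEN and 4.28, 3.91 and 3.42 with CCl4. The 3 CCl4 rats of day 84 stood apart from all 15 others. The rise there was 7.25 ± 0.77 log2 units, or 152-fold (adjusted p = 3.23e-06). Its size is not exact, because only 2 of 3 controls were well above background. With the slide as a block it was 7.66, a value from replicate 1 of CCl4 alone. At day 28 the change with CCl4 was 2.02 ± 0.77 (adjusted p = 0.0349), with replicate 3 of CCl4 below the highest control, and the call was lost without any of 4 single arrays (1.29 to 2.19). The change with DEN at day 84, 1.97 ± 0.77 (adjusted p = 0.0441), was lost without any of 5 arrays (1.35 to 2.14). CCl4 was at least 2.61-fold above DEN at day 28, a bound that sets DEN at the lowest signal above background, and 38.8-fold above DEN at day 84 (adjusted p = 0.000189).

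Sult2a1, whose promoter differs from that of Sult2a6 at 5 bases, moved otherwise. Levels were 4.23, 4.33 and 4.93 in controls, 4.63, 4.61 and 4.27 with DEN and 1.63, -0.21 and 3.39 with CCl4 at day 28. After 84 days they were 4.84, 4.88 and 4.93 in controls, 2.73, 1.42 and 3.00 with DEN and 4.78, 3.98 and 3.96 with CCl4. It fell 7.41-fold with CCl4 at day 28 and 5.67-fold with DEN at day 84 (adjusted p = 0.00154 and 0.00524), and its change with CCl4 at day 84 was -0.65 ± 0.64 (adjusted p = 0.391). Sult2b1, which sulfates cholesterol and is mainly an enzyme of skin, had levels of -5.69, -5.37 and -5.41 in controls, none above background, and -2.80, -2.12 and -2.57 with CCl4 at day 28, at least 2.14-fold higher. Its DEN arrays of day 28, at -4.39, -5.53 and -4.65, were not well above background. At day 84 its levels were -3.24, -4.08 and -3.43 in controls, -1.05, -0.79 and -1.79 with DEN and -1.98, -2.34 and -1.99 with CCl4, rises of 5.18-fold and 2.79-fold (adjusted p = 4.10e-05 and 0.000888) against controls of which 2 of 3 were above background. With normexp background correction these were 0.88 and 0.35 log2 units.

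How the response changed with time was tested as the difference between the effects at day 84 and day 28. For DEN the effect was higher at day 84 in 9 members and lower in 3 (7.64% and 8.41% of all genes, 16.1% either way), or 11 and 0 under spike-in scaling (limma; 20 and 3 at an unadjusted p under 0.05) and 12 and 2 with quantile normalization. Gstp1 had the largest of these differences. Sult2b1 is counted among the increases although both of its day 28 groups were below background, so it has no measured effect at that day. The next of the increases was Mgst2 (0.85 ± 0.19). Gstm3 (-1.09 ± 0.34), Sult1c2 (-0.99 ± 0.30) and Gsta6 (-0.76 ± 0.13) had negative differences, which for Sult1c2 means a deeper fall at day 84 and for the others a smaller rise. The calls of Gstm3 and Sult1c2 were lost without any of 9 arrays (-1.21 to -0.83) and any of 10 arrays (-1.05 to -0.82). For CCl4 the effect was higher at day 84 in 3 members and lower in 0 (limma; 8 and 3 at an unadjusted p under 0.05; 3.51% and 2.52% of all genes, 6.03% either way), namely Sult2a2 (5.23 ± 1.09), Ugt2a3 (1.40 ± 0.36) and Sult1b1 (0.59 ± 0.12), and under spike-in scaling 1 was higher and 1 lower. With the slide as a block, which takes CCl4 at day 84 from replicate 1 alone, Sult2a2 (5.06) and Ugt2a3 (1.65) were not called. Ugt2a3 was also lost without any of 6 single arrays (1.23 to 1.45). Between the control groups of the 2 days, 2 members were higher and 3 lower at day 84 (4.44% and 5.32% of all genes, 9.77% either way), and 1 of those higher, Sult2b1, was below background in all controls of day 28, so its difference has no measured size. The days lie mostly on different slides, so for the controls day and slide cannot be told apart except through the array of CCl4 at day 28 that shares the slide of day 84.

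Set directly against DEN at the doses used, which differ, CCl4 gave higher levels in 4 members and lower in 30 at day 28 (20.4% and 24.7% of all genes, 45.1% either way), and higher in 4 and lower in 22 at day 84 (18.5% and 15.8%, 34.3% either way). Under spike-in scaling the split was 7 and 17 at day 28 and 2 and 24 at day 84. Gstp1 was above DEN with CCl4 at day 28 by 0.91 ± 0.11 and Sult2a6 by 2.92 ± 0.31 (adjusted p = 2.29e-05 and 1.20e-05). At day 84 Sult2a2, Sult2a6, Sult2a1 and Gstm3 were higher with CCl4, by 5.28, 2.59, 1.85 and 0.92 log2 units, of which Sult2a1 and Gstm3 (adjusted p = 0.0383 and 0.0102) were not called under spike-in scaling, and Sult2a1 was lost without any of 5 single arrays (1.37 to 2.03).

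One array stood apart: replicate 2 of CCl4 at day 28 had a median level over the 44 members of 3.90, against 4.96 and 5.06 for the other 2 of its group. Without it, 5 members rose and 22 fell with CCl4 at day 28, with a median change of -0.37, and 4 were above and 25 below DEN. The counts without this array are given without the share of all genes in the same fit. They do not set the members apart from other genes.

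Genes that supply cofactors and move conjugates are given by role, to be read against the shares of all genes above. For glutathione, 5 of 6 tested supply genes rose with DEN at day 84 and 2 with CCl4 at each day, or 5, 4 and 3 under spike-in scaling. Slc7a11, the cystine importer, was below background in all controls and in DEN rats of day 28 and reached 2.75 to 4.23 with DEN at day 84, at least 152.8-fold above control. Gclc, the catalytic subunit of the rate-limiting enzyme of glutathione synthesis, lay between 4.04 and 4.23 in controls of day 84 and between 6.64 and 7.40 with DEN (2.81 ± 0.16, adjusted p = 2.61e-08), and its change with CCl4 at day 84 was 0.10 ± 0.16, or 0.65 and called under spike-in scaling. Of 7 tested genes of the mercapturate steps, which trim glutathione conjugates, 1 rose and 2 fell with DEN at day 84. With CCl4, 2 rose at each day and 4 and 3 fell. Under spike-in scaling 3 rose and 1 fell with DEN at day 84. With CCl4, 3 rose at each day and 2 and 1 fell. Ggt1 rose by 5.76 ± 0.58 with DEN and 2.80 ± 0.58 with CCl4 at day 84, values that are not exact because only 1 of 3 controls was above background. Acy3, an aminoacylase, fell in all 4 comparisons by between -0.82 and -2.09, and in 3 under spike-in scaling, where DEN at day 28 was not called.

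For sulfation, the 6 tested genes of PAPS supply and reversal fell in 2 and 4 cases with DEN and in 5 and 6 with CCl4 at days 28 and 84. Under spike-in scaling 1 and 3 fell with CCl4, and with DEN 1 rose at each day. Papss2, which makes PAPS, fell in all 4 comparisons, by -0.84 and -1.14 with DEN and -2.13 and -1.72 with CCl4 (each ± 0.19), of which the falls with CCl4 were called under spike-in scaling and those with DEN were not. Of 4 tested genes of UDP-glucuronic acid supply and reversal, 2 rose and 1 fell with DEN at day 84 and 2 fell with CCl4 at each day. Under spike-in scaling 4 rose with DEN at day 84 and 2 rose and 1 fell with CCl4 at each day. Ugdh, which oxidises UDP-glucose to UDP-glucuronic acid, rose by 1.63 ± 0.18 with DEN at day 84 (adjusted p = 1.02e-05) and fell by -0.46 and -0.54 with CCl4 (each ± 0.18; 0.34 and 0.01 under spike-in scaling). Ugp2, which makes UDP-glucose, fell by -1.48 ± 0.19 and -1.36 ± 0.19 with CCl4. Of 4 tested exporters, 2 rose with DEN at day 84 (4 under spike-in scaling), and 2 rose and 1 fell with CCl4 at each day. With CCl4 under spike-in scaling 2 and 3 rose and 1 fell at each day. Abcc3, which carries conjugates back into blood, rose by 2.73 and 3.72 with CCl4 and 4.75 with DEN at day 84 (each ± 0.24), while Abcc2, which carries them into bile, fell by -1.71 and -1.42 with CCl4 (each ± 0.20).

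Of 16 regulators of these genes, 12 and 10 fell with CCl4 and 6 and 6 with DEN at days 28 and 84, and 3, 3, 1 and 2 rose. Under spike-in scaling 5 and 3 fell and 5 and 5 rose with CCl4, and 3 and 10 rose with DEN. Hnf4a, a hepatocyte transcription factor, fell by -0.67 and -0.61 with DEN and -1.47 and -1.03 with CCl4 (each ± 0.13), and Ahr, the aryl hydrocarbon receptor, by -0.65 and -0.57 with DEN and -1.92 and -0.60 with CCl4 (each ± 0.17). Under spike-in scaling the falls with DEN of both were not called, nor that of Ahr with CCl4 at day 84. Maff, a small Maf partner of the factors that bind the antioxidant response element, was below background in all controls and at least 4.71-fold higher with DEN at day 84.

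**Figure D5:**
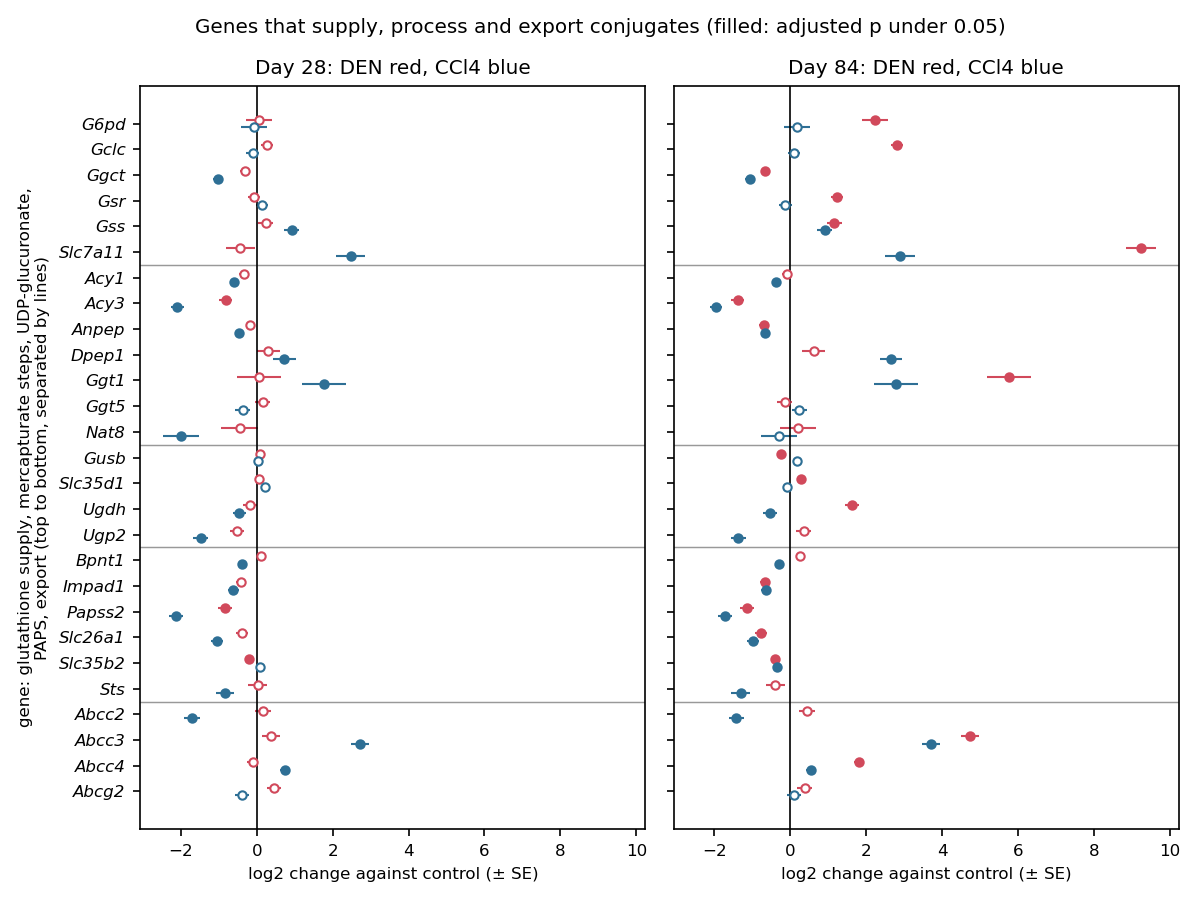
Log2 change against control (± SE) of cofactor, mercapturate and export genes at day 28 and day 84, with DEN in red, CCl4 in blue and filled symbols where limma's adjusted p is under 0.05. At day 84 Slc7a11, Ggt1, Abcc3 and Gclc lie far to the right with DEN, while Papss2 and Acy3 lie to the left with both compounds.

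Markers of cell types moved in the same samples. The 8 hepatocyte markers (Alb, Ttr, Apoa1, Tf, Hnf4a, Serpina1, Apob and Fgb) fell in 3 and 7 cases with DEN and 8 and 7 with CCl4, and their summed level was 6458 to 6712 and 5427 to 5660 times the 75th percentile in controls of days 28 and 84, 3126 to 3954 and 3372 to 4538 with CCl4, and 3278 to 3812 with DEN at day 84. Under spike-in scaling 2 and 1 of them fell with CCl4 and 0 and 0 with DEN, where 1 rose at each day (limma; 0 lower at an unadjusted p under 0.05 with DEN at either day). With quantile normalization 2 and 2 fell with CCl4 and 1 and 1 with DEN. Of 7 tested cholangiocyte markers, 5 and 7 rose with CCl4 and 6 with DEN at day 84, and their sum went from 2.12 to 2.51 in controls of day 84 to 5.87 to 10.5 with DEN and 10.5 to 13.9 with CCl4. Of 6 tested stellate cell markers, 4 rose with CCl4 at each day. The 7 macrophage markers split into 3 rises and 3 falls with CCl4 at each day, and 2 rose with DEN at each day. Of 5 tested lymphocyte markers, 2 rose with DEN at day 28 and with CCl4 at each day. At day 84, 1 fell with each compound. Of 3 tested endothelial markers, 2 fell with CCl4 at each day and DEN at day 84, and 1 rose with DEN at day 28. The 2 tested erythroid markers fell with CCl4 at each day and with DEN at day 84. Under spike-in scaling 7 and 7 cholangiocyte markers rose with CCl4 and 7 with DEN at day 84. All 8 genes of a preneoplastic focus list, which includes Gstp1, rose with DEN at day 84, with a sum of 1338 to 1599 against 72.6 to 87.4 in controls. Of the 8, 4 also rose with DEN at day 28 and 6 with CCl4 at each day. Their sum was 70.0 to 88.3 in controls of day 28 and 273 to 302 with DEN at that day. With CCl4 it was 311 to 336 at day 28 and 237 to 267 at day 84. The part of these cell types in the changes of the conjugation enzymes was not tested.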

How the data were processed

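Total liver RNA was labelled with Cy3 and read on Agilent one-colour arrays, per the labels. Per the submitters' processing notes, the authors' scanner software was Agilent Feature Extraction (version 10.7.1.1). Deposited scanner files hold intensity values, and the authors' deposited processed values are a linear ratio to each array's own constant (100% of probes within 0.01 log2). The level is log2 of the processed signal minus its 75th percentile on the array. Control spots and 18 outlier probes were left out, and 28206 of 61537 probes matched 1 RefSeq gene. Genes were kept where the probe with the highest mean over 18 arrays was well above background on all 3 arrays of a group. The 18 arrays were fitted together with limma 3.58.1 (lmFit, eBayes; 12 residual degrees of freedom) in R 4.3.3, and the fit was tested on simulated data. The probe alternative and the omission of 1 array alone were chosen after seeing the data.

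The members and lists were chosen with earlier results of these data known. Values of every array are given for Gstp1, Sult2a2, the 3 called members of each family with the largest change against control and the member of the family with the highest mean. Other genes of a role were named from the 3 with the smallest adjusted p. Between 47.2% and 57.0% of probes were well above background on an array, 0 were saturated, the 75th percentile was 170 to 325 and arrays of a group correlated at 0.976 to 0.996. With 3 rats per group their number limits the precision. The labels do not say how rats were assigned. Promoters came from RefSeq (GRCr8), and the array design uses an older build, so no gene positions are given. Python 3.11.15, pandas 2.3.3, numpy 2.4.6, matplotlib 3.10.9, Biopython 1.88 and the R package data.table (version 1.17.8) were used. Some genes that the rule names are not reported here.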

Additional observations from a re-analysis of the deposited data

Results flagged for a closer look

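The effect of DEN, as the difference from the controls of the same day, differed between the days in 12 members (limma, Benjamini-Hochberg over all genes). For 1 of them, Sult2b1, no value is given, because both of its groups at day 28 were below background. The effect at day 84 minus that at day 28 was positive, at 3.87 log2 units for Gstp1, 0.85 for Mgst2, 0.78 for Gstm4, 0.74 for Gstm1, 0.70 for Ugt1a2, 0.68 for Gsta4, 0.60 for Ugt1a6 and 0.52 for Sult1b1. It was negative for Gstm3 (-1.09) and Gsta6 (-0.76), whose rises were smaller at day 84, and for Sult1c2 (-0.99), whose fall was deeper. The same difference for CCl4 was positive, at 5.23 for Sult2a2, 1.40 for Ugt2a3 and 0.59 for Sult1b1. Sult1b1 is thus listed for both compounds, and its controls also differed between the days, by -0.66 ± 0.09 (adjusted p = 0.000482). Dixon's test for a single outlying rat is not used in groups of 3, and leaving out each array in turn is given with the results.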

How the results depend on the processing

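Of 186 called changes of members, 184 were called in the same direction with median scaling and 186 with the authors' value table. With the replicate number as a block 182 were, and with the slide as a block 165. The value table holds the same processed signals up to a constant per array, so it is not an independent check. Replicate numbers were not used as pairs in the main fit. Same-numbered arrays of different groups correlated at -0.227 to 0.433 (mean 0.010) and differently numbered ones at -0.398 to 0.205 (mean -0.005). Of 18 arrays, 9 were closest to their own number. These values do not settle whether the numbers pair the rats. The counts that follow are given without the share of all genes in the same fit, so they do not set the members apart from other genes. With the replicate block 18 members rose and 12 fell with DEN at day 84, CCl4 was above DEN in 4 and below in 21 at day 84, and the DEN effect differed between the days in 11. The DEN effect differed between the days in 21 members when only the groups compared were fitted, and in 7 to 12 with single arrays left out. For CCl4 the range was 2 to 5. For the controls of both days it was 3 to 4, with 3 under spike-in scaling and 0 with the slide as a block (limma; 2 higher and 16 lower at an unadjusted p under 0.05).

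Reversals came from spike-in scaling, quantile normalization and the mean of all probes. Under spike-in scaling CCl4 against control at day 28 gave Gsta1 0.0947, Gsta3 0.42, Gsta6 0.0860, Gstt2 0.22, Mgst2 0.46, Sult1b1 0.56 and Ugt1a1 0.18, and at day 84 Gsta4 0.0435, Gstk1 0.0305 and Ugt1a6 0.23. DEN against control gave Ugt1a6 0.0224 at day 28 and Mgst1 0.20, Mgst3 0.20 and Sult1a1 0.35 at day 84. CCl4 against DEN at day 28 gave Gstm4 0.0036, Gstt1 0.018 and Sult1b1 0.0010. Quantile normalization gave Sult1b1 0.0549 with CCl4 at day 28. The mean of all probes gave Gsta3 1.58 with CCl4 at day 28, and Ugt1a6 0.26 with DEN at day 28 and 0.41 with CCl4 at day 84. Spike-in scaling adds one constant per array. The other causes were not tested. Single arrays left out ended 36 of the 186 calls. Signal over background limits Sult2a2, Sult2b1, Ugt1a9 and Gsto2, which were not well above background on every array.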
